A study of Mus musculus with 6 samples.

Results

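The family of common gamma chain receptors was taken as 9 genes, *Il2ra*, *Il2rb*, *Il2rg*, *Il4ra*, *Il7r*, *Il9r*, *Il13ra1*, *Il15ra* and *Il21r*, chosen by name. Among them, *Il13ra1* pairs with *Il4ra* in place of the gamma chain. Of the 9, 8 had a row of values that the array annotation ties to the gene, among 19752 genes measured in mature CD4 SP thymocytes, and *Il2rg* was not analysed here. Each measured member had 1 row. RNA came from CD4 SP thymocytes sorted as Va2hi CD24lo, all from mice with the OT-II TCR transgene, which fixes the specificity of the TCR. The dKO cells carried floxed alleles of *Kdm6b* (Jmjd3) and *Kdm6a* (Utx), written Jmd3f/f-utxf/f in the labels, deleted by Cre under *Cd4* control from the DP stage on. Wild-type cells were taken from littermates with floxed alleles but no Cre, as the Methods describe. There were 3 arrays of each genotype, and the labels give neither the age of the animals nor whether each array came from its own mouse. The p-values therefore reflect only how much these arrays vary, which may be technical.

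*Kdm6a* had log2 values of 10.16, 10.11 and 10.20 in wild-type and of 9.48, 9.40 and 9.58 in dKO cells, while *Kdm6b* had values of 9.83 to 9.97 and of 9.71 to 9.86. Only some exons of either gene are deleted, so a row that summarizes a whole transcript does not measure the deletion. The T-cell markers *Cd3e* and *Cd4* differed by 0.0079 and 0.09 between genotypes on the log2 scale (adjusted p = 0.94 and 0.30 from limma). Among 9 measured T-cell markers, 3 were lower in dKO cells, where 10.0% of all genes were. These were *Thy1* (log2 fold change -0.61), *Cd5* (-0.43) and *Themis* (-0.24). *Cd28* was higher (0.24), where 13.1% of all genes were, and 5 markers were not called.

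The common gamma chain, encoded by *Il2rg* on the X chromosome, is the signalling partner of the receptors for IL-2, IL-4, IL-7, IL-9, IL-15 and IL-21. Each of these receptors adds a chain of its own. IL-2 and IL-15 also share the beta chain *Il2rb*, and their alpha chains *Il2ra* and *Il15ra* raise the affinity for the ligand without signalling themselves. *Il4ra* can pair with the gamma chain, or with *Il13ra1* to form a receptor for IL-4 and IL-13. The chains carry the kinases Jak1 and Jak3, which activate STAT factors, among them STAT5 below IL-2 and IL-7 and STAT6 below *Il4ra*. In the thymus, *Il7r* sustains early progenitors, is low in DP cells and returns in SP cells, whereas *Il2ra* marks early progenitors and regulatory T-cells.

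The members differed in their response. In dKO cells *Il2ra*, *Il2rb* and *Il15ra*, the chains of the IL-2 and IL-15 receptors, were lower. *Il4ra* and *Il7r* were higher, and *Il21r*, *Il9r* and *Il13ra1* did not pass the test. Thus 3 of 8 members were lower, where 10.0% of all genes were, and 2 of 8 were higher, where 13.1% of all genes were. Brighter genes were called more often: with the brightest 9876 genes fitted alone, 1887 were lower and 2634 higher, with 3 and 2 members again. All 3 dKO arrays lay to the same side of all 3 wild-type arrays for these 5 members, and 37.7% of all genes had groups that did not overlap. The median log2 fold change of the 8 members was -0.09, against 0.0057 over all genes. Calls were made at an adjusted p under 0.05 from limma, adjusted over all 19752 genes.

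**Figure D1:**
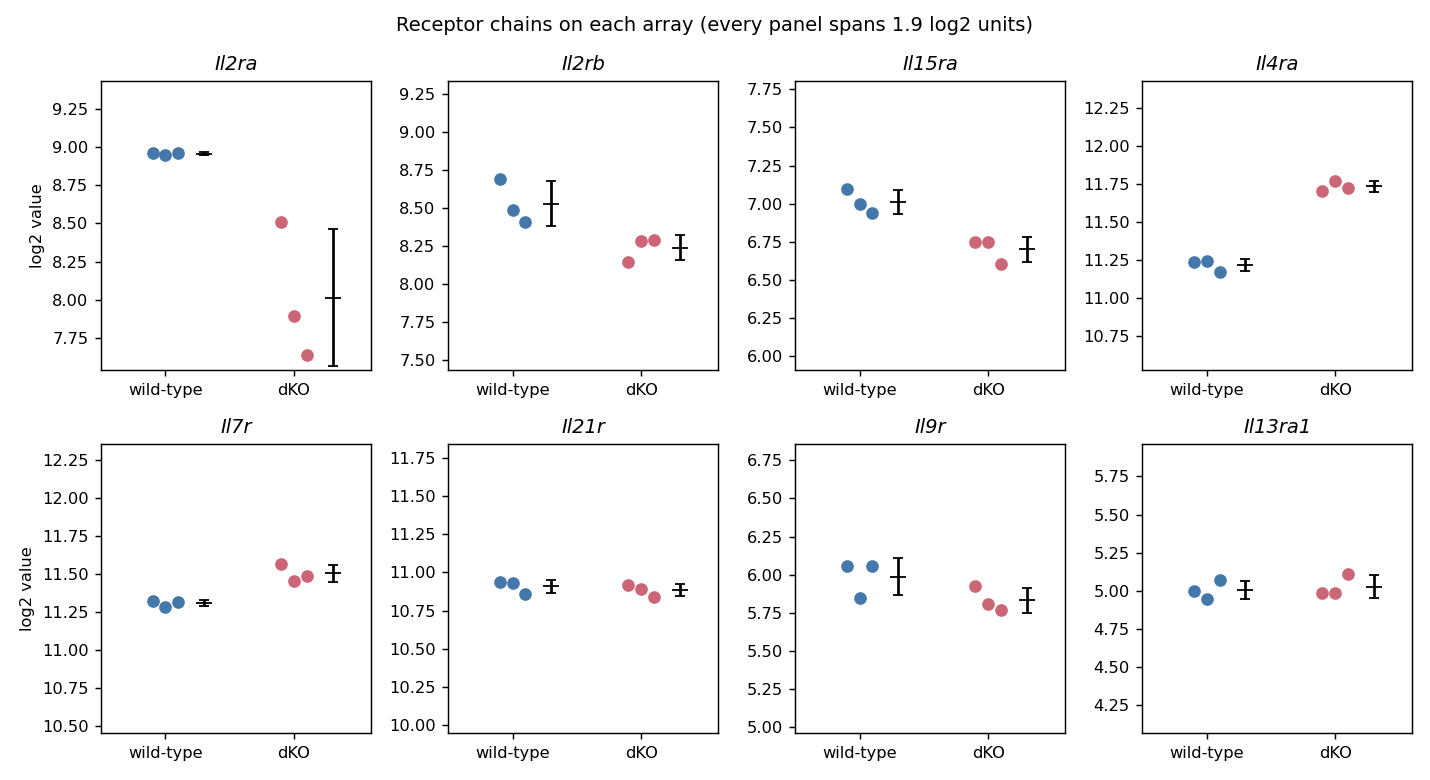
Log2 value (vertical axis) of 8 receptor chains on each of 3 wild-type (blue) and 3 dKO (red) arrays, with the mean and SD of each genotype in black. *Il2ra*, *Il2rb* and *Il15ra* lie lower and *Il4ra* and *Il7r* higher on every dKO array, and *Il2ra* has the widest spread between dKO arrays.

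The promoters of the called members are shown because these genes moved in opposite directions. They are the 250 bases before each transcription start site, read 5′ to 3′ on the strand of the gene, from RefSeq on build GRCm38.p6. Of the 9 members, 8 had an entry and *Il2rb* had none. Each was searched on both strands for a STAT5-type element (TTCNNNGAA), a STAT6-type element (TTC and GAA separated by 4 bases), a forkhead element bound by Foxo factors (GTAAACA), an Ets element (CCGGAA) and a Runx element (TGTGGT). Capitals mark the matches. *Il2ra*, encoding the IL-2 receptor alpha chain, lies on chr2:11642542-11642791 (plus strand):
Il2ra: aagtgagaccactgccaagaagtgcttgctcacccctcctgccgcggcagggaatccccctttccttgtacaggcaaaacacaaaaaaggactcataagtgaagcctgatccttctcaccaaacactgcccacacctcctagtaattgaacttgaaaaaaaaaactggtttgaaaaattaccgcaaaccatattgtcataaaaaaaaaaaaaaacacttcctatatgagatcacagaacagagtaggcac
*Il15ra*, encoding the IL-15 receptor alpha chain, has 2 start sites in the table, with windows at chr2:11705043-11705292 and chr2:11705462-11705711 (plus strand):
Il15ra start 1: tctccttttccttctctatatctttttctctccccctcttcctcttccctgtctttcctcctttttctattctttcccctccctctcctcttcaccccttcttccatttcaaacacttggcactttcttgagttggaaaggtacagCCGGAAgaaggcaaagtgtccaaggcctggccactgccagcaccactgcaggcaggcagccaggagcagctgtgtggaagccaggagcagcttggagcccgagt
Il15ra start 2: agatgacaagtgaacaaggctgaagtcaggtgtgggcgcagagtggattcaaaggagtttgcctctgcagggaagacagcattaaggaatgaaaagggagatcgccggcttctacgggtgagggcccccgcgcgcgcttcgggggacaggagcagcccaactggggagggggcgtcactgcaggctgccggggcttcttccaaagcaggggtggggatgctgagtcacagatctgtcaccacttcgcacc
*Il4ra*, encoding the IL-4 receptor alpha chain, has its window at chr7:125552021-125552270 (plus strand), and *Il7r*, encoding the IL-7 receptor alpha chain, at chr15:9529877-9530126 (minus strand):
Il4ra: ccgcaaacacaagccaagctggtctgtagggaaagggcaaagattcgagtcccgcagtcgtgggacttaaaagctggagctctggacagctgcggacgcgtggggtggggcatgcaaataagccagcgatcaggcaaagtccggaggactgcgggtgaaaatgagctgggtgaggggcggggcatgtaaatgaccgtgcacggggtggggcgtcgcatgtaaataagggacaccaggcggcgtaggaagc
Il7r: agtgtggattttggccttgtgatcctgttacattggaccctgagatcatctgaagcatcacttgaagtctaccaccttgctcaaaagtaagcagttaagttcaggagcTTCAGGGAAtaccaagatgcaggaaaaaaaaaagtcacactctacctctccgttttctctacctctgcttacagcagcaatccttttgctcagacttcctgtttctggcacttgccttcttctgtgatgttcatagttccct

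Among these windows, that of *Il7r* held 1 STAT5-type element, which begins 142 bases before the start. Such an element was found in 7.02% of 32851 promoters of the same length. The *Il15ra* window at start 1 held 1 Ets element, 104 bases before the start, as did 12.0% of all promoters. None of the 5 elements was found in the *Il2ra* and *Il4ra* windows or in that of *Il15ra* at start 2. The forkhead element was present in 3.17% of promoters and, among the members, in that of *Il21r*, where it overlapped a Runx element. STAT6-type elements were in 5.85% and Runx elements in 14.0% of all promoters. The raised *Il4ra* had 17 CpG dinucleotides in its window and the raised *Il7r* had 1, against a median of 6 over all promoters. The lowered *Il2ra* had 3, and the lowered *Il15ra* had 2 at start 1 and 12 at start 2. The windows of the raised members, and those of the lowered members, thus lay on either side of the median in CpG content. A match describes letters and does not show binding.

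*Il2ra* showed the largest change of the family. Its log2 values were 8.96, 8.95 and 8.96 on the wild-type arrays, and 8.51, 7.89 and 7.64 on the dKO arrays. The wild-type arrays were close together, the dKO arrays were far apart, and the highest dKO value still lay below all wild-type values. The difference was -0.95 on the log2 scale (standard error 0.17; limma, adjusted p = 0.0029), which leaves 51.9% of the wild-type value in dKO cells. By size it was number 134 among the decreases of all genes. The SD between dKO arrays was 0.45, against 0.0088 between wild-type arrays, and was larger than that of 99.9% of the genes. Without dKO replicate 1 the log2 fold change was -1.19 (adjusted p = 1.9e-05), and without dKO replicate 3 it was -0.76 (adjusted p = 0.0077). Where each gene was tested with its own variance alone, the adjusted p was 0.10, and the call was lost.

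The spread of *Il2ra* between dKO arrays ran alongside that of interferon-stimulated genes. The 3 genes closest to *Il2ra* in pattern over the 6 arrays were *Oas2*, *Oas3* and *Zbp1*, by the root mean square difference of values centred on each gene's mean (0.10, 0.13 and 0.15 on the log2 scale). All 3 are induced by interferon, *Oas2* and *Oas3* encoding antiviral oligoadenylate synthetases and *Zbp1* a sensor of nucleic acids. *Oas2* had log2 values of 9.17, 9.17 and 9.12 in wild-type and of 8.54, 8.21 and 7.96 in dKO cells, highest in dKO replicate 1 as for *Il2ra*. A list of interferon-stimulated genes was then written, after these values had been seen. It includes *Oas2*, *Oas3* and *Zbp1*, so its counts are a description and no test. Of the other 15 measured genes, 14 had their highest dKO value in replicate 1, where 31.0% of all genes did, and 5 were lower. The mean log2 value of the 18 genes was 8.89 to 8.99 over wild-type arrays, and 8.87, 8.54 and 8.33 over the dKO arrays. With the 3 genes that led to the list, 8 of 18 were lower and none was higher. Of all genes, 10.0% were lower and 13.1% higher.

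*Il2ra* also marks regulatory T-cells, and all 10 measured markers of these cells were lower in dKO cells, where 10.0% of all genes were. *Foxp3*, the transcription factor gene that defines them, had log2 values of 7.78, 7.74 and 7.66 in wild-type and of 6.81, 6.82 and 6.86 in dKO cells. *Ikzf2*, encoding the related factor Helios, had values of 7.14 to 7.38 and of 6.16 to 6.48. The mean over the 10 markers was 8.11 to 8.12 on wild-type and 7.27 to 7.33 on dKO arrays. Taken singly, the markers had ranges over the dKO arrays of 0.0498 (*Foxp3*) to 0.42 (*Tnfrsf4*, a costimulatory receptor gene), with a median of 0.19, and that of *Il2ra* was 0.87. Of the 10 markers, 5 had their highest dKO value in replicate 1. In sorted bulk samples, fewer cells of a type and less RNA per cell cannot be told apart. The part of regulatory T-cells and of the interferon-stimulated genes in the *Il2ra* values was not tested.

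**Figure D2:**
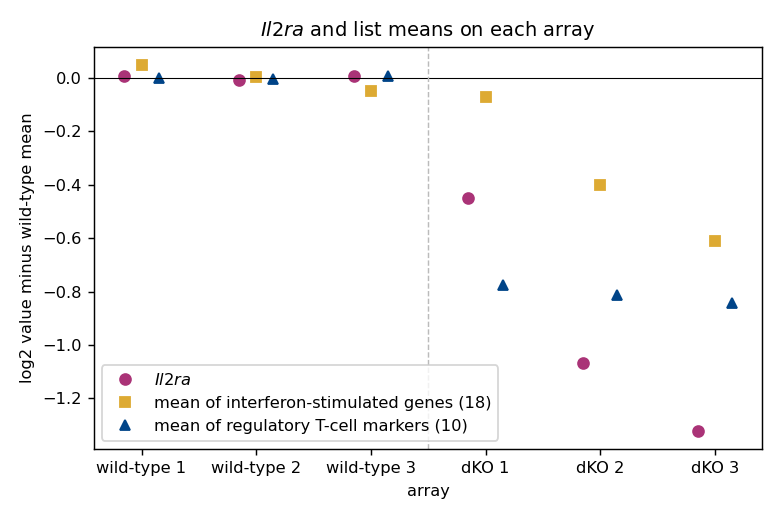
Log2 value minus the wild-type mean (vertical axis) on each array (horizontal axis) for *Il2ra* (circles), for the mean of 18 interferon-stimulated genes (squares) and for the mean of 10 regulatory T-cell markers (triangles). On the dKO arrays *Il2ra* and the interferon-stimulated genes are highest in replicate 1 and lowest in replicate 3, while the mean of the regulatory T-cell markers, which averages over single markers that range by up to 0.42, lies between 7.27 and 7.33 before subtraction.

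*Il2rb*, the signalling chain shared by IL-2 and IL-15, had log2 values of 8.69, 8.49 and 8.40 in wild-type and of 8.14, 8.28 and 8.29 in dKO cells. The groups did not overlap, but the gap between them was narrower than the range of the wild-type arrays. The difference was -0.29 on the log2 scale (standard error 0.08; limma, adjusted p = 0.020), with 81.9% of the wild-type value kept. Leaving out replicate 1 ended this call, with an adjusted p of 0.052 for the wild-type and 0.076 for the dKO array, as did testing with the variance of the gene alone (0.15). *Il2rb* is also abundant in NK cells and innate-like T-cells. Of 10 markers of these cells, 2 were lower, where 10.0% of all genes were, and none was higher, where 13.1% were. The lower ones were *Nkg7* (log2 fold change -0.54, adjusted p = 0.0049 from limma) and *Cxcr3* (-0.23, adjusted p = 0.0077). The mean log2 value of the 10 markers was 5.30 to 5.45 on wild-type and 5.22 to 5.31 on dKO arrays. *Ncr1*, which defines NK cells, differed by 0.08 (adjusted p = 0.49). It lay below the first quartile of the arrays, as did *Klrb1c*, *Klrd1* and *Klrk1*. Only *Nkg7*, *Cxcr3* and *Ccl5* (log2 fold change 0.0025) had wild-type means above the array median (6.27 to 6.32), so the list mean rests mostly on dim genes. All 10 markers of regulatory T-cells, with wild-type means of 6.59 to 10.08, were lower. The part of any of these cells in the *Il2rb* values was not tested.

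*Il15ra*, which presents IL-15 to *Il2rb* and the gamma chain, had log2 values of 7.09, 7.00 and 6.94 in wild-type and of 6.75, 6.75 and 6.60 in dKO cells. Every dKO array lay below every wild-type array. The difference was -0.31 on the log2 scale (standard error 0.06; limma, adjusted p = 0.0039), with 80.5% of the wild-type value kept. With the variance of the gene alone the adjusted p was 0.0596, and the call was lost.

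*Il4ra*, the chain that binds IL-4, rose in dKO cells. Its log2 values were 11.23, 11.25 and 11.17 in wild-type and 11.70, 11.77 and 11.73 in dKO cells. Both groups were tight, and the increase was far larger than either SD (0.039 in wild-type and 0.034 in dKO cells). The increase was 0.52 on the log2 scale (standard error 0.05; limma, adjusted p = 3.9e-05), a 1.43-fold increase and number 354 by size among the increases of all genes. Its call held in every alternative run, with log2 fold changes between 0.49 and 0.55. The 3 genes closest to it in pattern were *Nln*, *Jade2* and *Cldnd1*, at root mean square differences of 0.022, 0.028 and 0.030 on the log2 scale over 6 arrays.

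*Il7r*, the alpha chain for IL-7, rose less. Its log2 values were 11.32, 11.29 and 11.32 in wild-type and 11.57, 11.46 and 11.49 in dKO cells, with no overlap. The increase was 0.20 on the log2 scale (standard error 0.05; limma, adjusted p = 0.015), a 1.15-fold increase. Leaving out replicate 2 of the wild-type arrays ended this call (adjusted p = 0.064). *Il7r* is low in DP thymocytes, the stage before SP cells. Of 7 measured DP markers, 3 were higher in dKO cells, where 13.1% of all genes were, and 1 was lower, where 10.0% were. *Dntt* rose by 1.52 on the log2 scale, number 9 by size among the increases of all genes. *Cd8b1* rose by 0.54 and *Cd1d1* by 0.44. *Rag1*, whose groups overlapped, was lower (log2 fold change -0.55). The mean log2 value of the 7 markers was 7.07 to 7.35 on wild-type and 7.41 to 7.63 on dKO arrays. *Cd8a*, *Rag2* and *Ptcra* were not called. The DP markers thus did not move in 1 direction, and their part in the *Il7r* values was not tested.

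*Il21r*, encoding the chain for IL-21, had log2 values of 10.94, 10.93 and 10.86 in wild-type and of 10.92, 10.89 and 10.84 in dKO cells. The groups overlapped. Its log2 fold change was -0.03 (adjusted p = 0.76 from limma), with a 95% interval of -0.13 to 0.08 before adjustment for the number of genes, which does not reach the fold changes of the 5 called members. *Il9r*, the IL-9 receptor chain, had values of 6.06, 5.85 and 6.05 against 5.92, 5.80 and 5.77 (log2 fold change -0.15, adjusted p = 0.15). Leaving out replicate 2 of the wild-type arrays gave a call (adjusted p = 0.042). *Il13ra1* had values of 4.95 to 5.07 against 4.98 to 5.11 (log2 fold change 0.02, adjusted p = 0.83). The *Il13ra1* values were close to the first quartile (4.97 to 5.01 over the arrays) and those of *Il9r* below their median (6.27 to 6.32). The files give no measure of detection, so whether either was above background is not known.

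Among measured genes in RefSeq order, *Il2ra* and *Il15ra* follow each other on chromosome 2, and *Il4ra* and *Il21r* on chromosome 7. The pair on chromosome 2 fell together, whereas on chromosome 7 *Il4ra* rose and *Il21r* had a log2 fold change of -0.03. The genes beside these pairs were picked once their values were known. *Rbm17* and *Fbh1*, which flank the pair on chromosome 2, had log2 fold changes of -0.03 and -0.04 (adjusted p = 0.82 and 0.64 from limma). Beyond *Fbh1*, *Ankrd16* fell by 0.50 (adjusted p = 9.1e-05). On chromosome 7, *Nsmce1* and *Gtf3c1* had log2 fold changes of 0.09 and 0.08 (adjusted p = 0.45 and 0.27). Of 24 genes that lie within 2 measured genes of a member and are no members, 3 were lower (*Ankrd16*, *Dock11* and *Nsg2*), or 12.5%, close to the 10.0% of all genes, and none was higher.

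**Figure D3:**
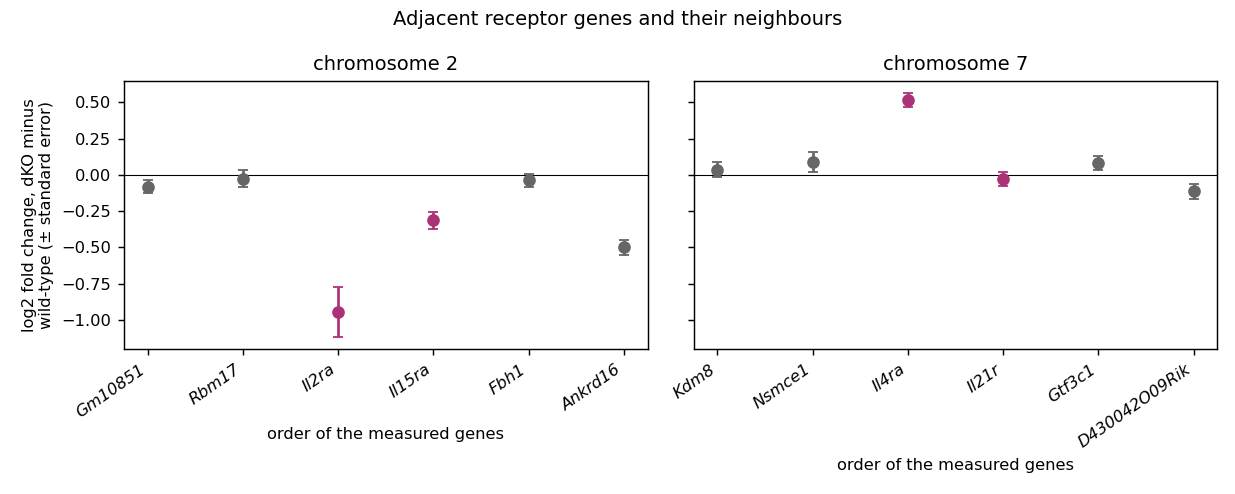
Log2 fold change with its standard error (vertical axis) of adjacent receptor genes (purple) and of 2 measured genes on each side (grey), in RefSeq order (horizontal axis), on chromosomes 2 and 7. *Il2ra* (-0.95), *Il15ra* (-0.31) and the grey *Ankrd16* (-0.50) lie furthest below 0. *Il4ra* at 0.52 stands apart from *Il21r* and the other genes beside it.

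Chains that pair in a receptor were also compared within each array, as the difference of their log2 values, in 3 pairs. *Il4ra* minus *Il13ra1* differed by 0.49, which restates the difference of *Il4ra*, since *Il13ra1* differed by 0.02 at a low level (exact permutation test, two-sided p = 0.10, the smallest that 3 arrays against 3 allow, and 0.30 adjusted over the pairs). *Il2ra* minus *Il2rb* was 0.43 ± 0.14 in wild-type and -0.23 ± 0.53 in dKO cells (SD, n = 3 each). In dKO replicate 1 this difference was 0.37, within the wild-type range of 0.28 to 0.56, and in the other dKO arrays it was -0.39 and -0.65 (exact permutation p = 0.20). *Il15ra* minus *Il2rb* moved by -0.02 (exact permutation p = 0.90), less than the SD of either group, and its sign turned under other normalizations.

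Around the receptors, 48 further genes of the pathway were measured, of which 16 were lower (33.3%, against 10.0% of all genes), 3 were higher (6.25%, against 13.1%) and 29 did not pass the test. None of 8 ligand genes was called by limma at an adjusted p under 0.05, and the highest mean among them in wild-type cells, that of *Il13*, was 6.22. The partner chain *Crlf2*, which joins *Il7r* in the receptor for TSLP, rose by 0.33 (adjusted p = 0.0059), from 8.28, 8.31 and 8.35 to 8.57, 8.79 and 8.55. *Il13ra2*, a decoy receptor for IL-13, differed by 0.03 (adjusted p = 0.76). *Crlf2* and *Il7r*, the chains of the TSLP receptor, were thus both higher.

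Most kinase and STAT genes did not pass the test, by which 10.0% of all genes were lower and 13.1% higher. Of 3 measured kinases, *Tyk2*, which serves the receptor of *Il4ra* and *Il13ra1*, was lower (log2 fold change -0.20, adjusted p = 0.029 from limma), whereas *Jak1* differed by -0.01 (adjusted p = 0.88). *Jak3* was not analysed here. Of 4 measured STAT genes, *Stat6*, which transmits IL-4 signals, was higher, from 10.52, 10.55 and 10.50 to 10.68, 10.72 and 10.68 (log2 fold change 0.17, adjusted p = 0.020). *Stat5a* and *Stat5b*, which act below IL-2 and IL-7, had log2 fold changes of 0.02 and -0.07 (adjusted p = 0.85 and 0.35). Of 5 adaptor genes, *Irs2*, encoding an adaptor recruited by *Il4ra*, was higher at 0.22 (adjusted p = 0.0086). The genes that serve *Il4ra* thus did not move in 1 direction.

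Of 7 feedback inhibitors, 3 were lower (42.9%, against 10.0% of all genes) and none was higher (against 13.1%). *Cish*, a STAT5 target that restrains IL-2 signalling, fell from 7.84, 7.58 and 7.47 to 6.50, 6.66 and 6.63 (log2 fold change -1.03, adjusted p = 2.6e-05 from limma). *Socs1*, a suppressor of cytokine signalling, fell from 9.29, 9.30 and 9.25 to 8.73, 8.76 and 8.71 (log2 fold change -0.55, adjusted p = 2.1e-05). *Socs3* fell by 0.35 (adjusted p = 0.0084). *Myc* and *Pim2*, among 8 target genes, were not called (log2 fold changes 0.06 and 0.03). The other 6 were lower (75% of the 8, against 10.0% of all genes), and none was higher. Those with the smallest p were *Ccnd2* (log2 fold change -2.85), which encodes a cyclin, *Pim1* (-1.24), a survival kinase gene, and *Bcl2l1* (-0.78) and *Bcl2* (-1.10), which encode inhibitors of apoptosis. Other inputs drive these genes as well. The study itself counted *Ccnd2* among genes that depend on Jmjd3 and Utx, from histone methylation, these arrays and RT-PCR.

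Of 11 genes that regulate the receptor genes, 6 were lower (54.5%, against 10.0% of all genes) and none was higher (against 13.1%). *Foxo1*, an activator of *Il7r*, fell by 0.94 (adjusted p = 1.8e-06 from limma), and *Gfi1*, a repressor of *Il7r*, fell by 0.36 (adjusted p = 0.0010), while *Il7r* itself was higher. *Runx3*, which promotes *Il2rb*, fell by 0.40 (adjusted p = 3.4e-04). *Tbx21* and *Eomes*, which also promote *Il2rb*, had log2 fold changes of 0.03 and -0.03 (adjusted p = 0.82 and 0.75). Their wild-type means were low, 5.80 and 4.90, so whether either was above background is not known. *Rel*, encoding an NF-kappaB subunit that promotes *Il2ra*, fell by 0.41 (adjusted p = 0.0021). *Foxo1*, too, was singled out by the study, from histone methylation, these arrays and RT-PCR.

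**Figure D4:**
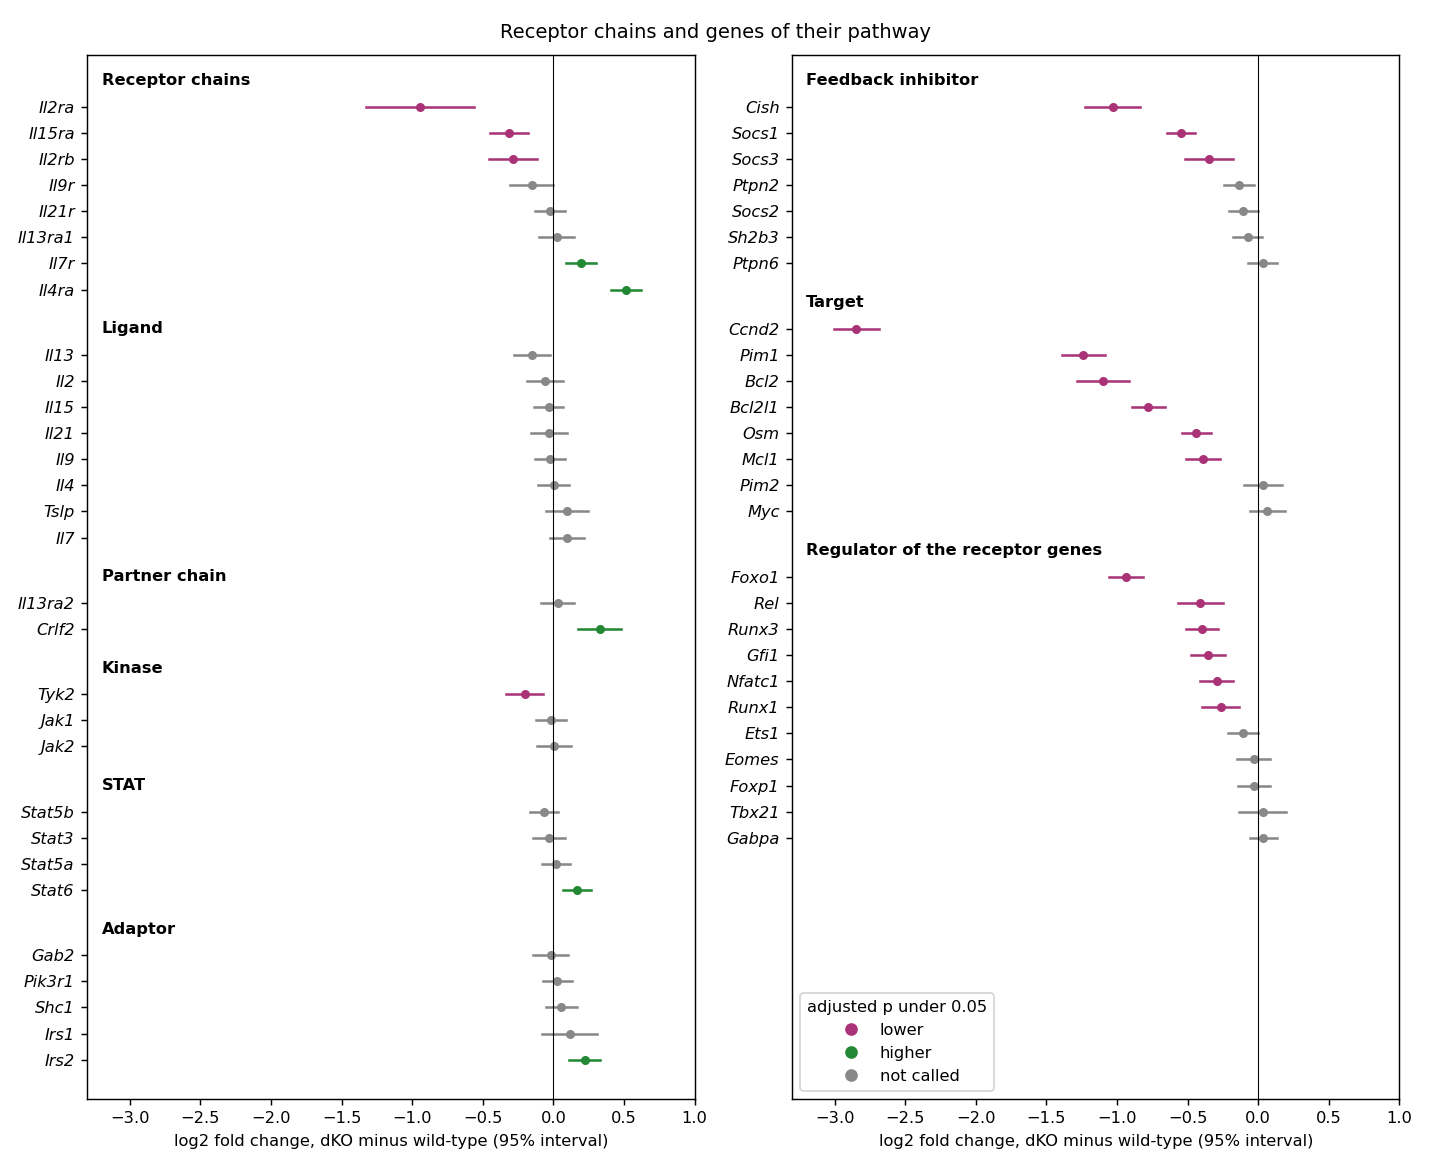
Log2 fold change of dKO against wild-type cells (horizontal axis, with the 95% interval from limma) for 8 receptor chains and 48 genes of their pathway, grouped by role and coloured by call. Feedback inhibitors, targets and regulators hold 15 of the 16 lower genes of the pathway, while the 3 higher genes are *Crlf2*, *Stat6* and *Irs2*.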

How the data were processed

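RNA of sorted mature CD4 SP thymocytes was hybridized by the authors to 6 Affymetrix arrays, described as Mouse Gene 1.0 ST in the Methods and as an Exon array in the series design. The authors deposited log2 values. Partek and RMA appear in the submitters' processing notes, with versions not given in the sources used here. RMA subtracts background, gives all arrays 1 distribution and combines the probes of a transcript. RMA compresses differences of dim genes and hides a change shared by most genes.

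Rows were named through the array annotation, with symbols updated by Entrez identifier. Of 25254 rows, 21496 had 1 symbol, and the brightest row of each gene by mean over all arrays left 19752 genes. Rows without a symbol or with more than 1 were dropped, *Jak3* among them. limma 3.58.1 in R 4.3.3 was fitted to all genes with genotype as the only term, with Benjamini-Hochberg adjustment and a threshold of 0.05. The fits were tested on simulated data. The number of arrays limits the precision. Figures used matplotlib 3.10.9 in Python 3.11.15.

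The members and lists were chosen with earlier results of these data known. All members are named. In each pathway list every called gene was named where there were 5 or fewer, otherwise the 4 with the smallest p. Uncalled genes, *Cd3e*, *Cd4*, *Nkg7*, *Cxcr3*, *Dntt*, *Cd1d1* and other markers beside these were named with their values known. Chain differences with *Il2rg* had been planned and could not be computed. The alternatives were other normalizations, filters on dim genes, the mean of rows, all rows, other variance models, a block for the replicate number, Student's t-test and each array left out.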

Additional observations from a re-analysis of the deposited data

How the results depend on the processing

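Of 117 alternative values for the fold changes of the 8 members, 108 kept their direction and their side of the threshold, among them all those of *Il4ra* and *Il21r*. Filters, variance models, the block, Student's t-test and the handling of rows leave a member's fold change as it was. In those alternatives only the side of the threshold could change. With Student's t-test the number of lower members was 0 at an adjusted p under 0.05 (3 at an unadjusted p under 0.05, and 3 by limma), since *Il2ra* (-0.95, adjusted p = 0.10), *Il2rb* (-0.29, 0.15) and *Il15ra* (-0.31, 0.0596) were lost. That test uses each gene's own variance. With 1 array left out, 2 to 4 members were lower and 1 to 2 were higher. The log2 fold change of *Il2rb* then lay between -0.35 and -0.21, of *Il7r* between 0.16 and 0.22 (lost without wild-type replicate 2), of *Il9r* between -0.22 and -0.12 (called without wild-type replicate 2) and of *Il13ra1* between -0.0199 and 0.0554 (sign turned without wild-type replicate 2 or dKO replicate 3). The difference of *Il15ra* minus *Il2rb* turned to 0.0011 after quantile normalization again and to 0.0074 after cyclic loess normalization, and lay between -0.0961 and 0.0492 with 1 array left out. The cause of these turns was not tested. *Il13ra1* was not among the brightest 14814 genes, nor *Il9r* in the brighter part of 9876 genes, so those filters give them no value.

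Arrays with the same replicate number deviated from their group means with correlations of 0.099, 0.024 and 0.070 over genes, which does not show that the numbers pair the arrays, and dKO replicate 2 correlated best with wild-type replicate 3. With the replicate number as a block, 3 members were lower and 2 higher, with adjusted p = 0.036 for *Il2rb* and 0.021 for *Il7r*, and 16 and 3 genes of the pathway. Over all genes, 1976 were lower and 2587 higher, and with Student's t-test 1173 and 1392. After cyclic loess normalization these were 2328 and 2222, which turns the balance over all genes but not the counts of members. Detection above background could not be assessed.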

Other observations

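Markers of other cells that use these receptors were also read. Of 7 measured B-cell markers, 1 was lower in dKO cells, where 10.0% of all genes were, and none was higher. It was *Cd79b* (log2 fold change -0.63, adjusted p = 1.2e-05 from limma), the only one with a wild-type mean above the array median. The defining *Ms4a1* differed by -0.03 (adjusted p = 0.73), at a wild-type mean of 4.26, below the first quartile of the arrays (4.97 to 5.01). Of 10 markers of myeloid and dendritic cells, *Lyz2*, encoding lysozyme, was the only one higher, where 13.1% of all genes were. Only *Itgam*, encoding an integrin chain, was lower, where 10.0% were. *Lyz2* had log2 values of 5.35, 5.43 and 5.03 in wild-type and of 6.75, 6.02 and 5.48 in dKO cells (log2 fold change 0.81, adjusted p = 0.043), so that its highest dKO value was also in replicate 1, as for *Il2ra*. The mean over the 10 markers was 5.27 to 5.35 on wild-type and 5.22 to 5.42 on dKO arrays. Of 7 markers of thymic epithelium, the cells that supply IL-7, *Epcam* was higher (0.28, adjusted p = 0.0020), where 13.1% of all genes were. The other 6 did not pass. *Irf7*, *Usp18* and *Rtp4* were the interferon-stimulated genes with a log2 fold change above 0 (0.20, 0.05 and 0.03), each with its highest value of all 6 arrays in dKO replicate 1 and its lowest in dKO replicate 3.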
